A study of Homo sapiens with 6 samples.

Results

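The epithelial-mesenchymal transition (EMT) is directed by a small set of transcription factors, and 10 genes from both sides of it were followed here in RNA-seq libraries of DLD1 cells, a human colorectal cancer cell line. The members are defined by name and known function, with no threshold on a measured value, but they were chosen with earlier results of these data known. They are 6 EMT inducers (ZEB1, ZEB2, SNAI1, SNAI2, TWIST1 and TWIST2) and 4 epithelial regulators (ESRP1, ESRP2, GRHL2 and OVOL1), out of 58884 genes in the table. Total RNA of DLD1 parental cells was compared with that of p85β KR-AA cells, in which K477A and R478A were knocked into PIK3R2, the gene of the p85β subunit of phosphoinositide 3-kinase, with 3 libraries per condition. Both conditions carry the PIK3CA helical domain mutation of the parental line, no treatment is given, and the 2 substitutions alter the nuclear localization sequence of p85β. The labels of mutant replicates 2 and 3 are not uniform, as the source name gives R479A and R480A in place of R478A, whereas their titles give R478A. According to the study's methods the mutant cells are screened knock-in clones, but the libraries carry no clone name. Differences between clones and the effect of the substitutions therefore cannot be told apart.

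The ZEB, SNAIL and TWIST proteins bind E-box motifs. ZEB and SNAIL proteins silence genes of cell junctions and polarity in epithelial cells, whereas TWIST proteins are helix-loop-helix factors that cooperate with them. On the other side, ESRP1 and ESRP2 are RNA-binding proteins that keep epithelial exons in mRNAs, and GRHL2 and OVOL1 are transcription factors that maintain the epithelial state and restrain ZEB1 or the mesenchymal program. The microRNAs of the miR-200 family bind the ZEB1 and ZEB2 mRNAs, and ZEB1 represses the miR-200 genes in return, in a double-negative loop.

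The sequences behind this loop are shown because ZEB1 and ZEB2 went from no count to detection and the host gene of 2 of these microRNAs was called lower under TMM, though not with length and GC offsets. That host gene passed a filter on low values through the parental libraries alone, so its call follows in part from the filter. Seeds (bases 2 to 8) are in capitals, and sequences are the mature forms of RefSeq on GRCh38.p14. The first 3 have 1 seed in common and the last 2 another.
hsa-miR-200b-3p: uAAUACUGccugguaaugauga
hsa-miR-200c-3p: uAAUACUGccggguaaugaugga
hsa-miR-429: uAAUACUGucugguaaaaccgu
hsa-miR-200a-3p: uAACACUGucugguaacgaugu
hsa-miR-141-3p: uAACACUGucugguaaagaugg
Searched on the mRNA strand for the seed complements, CAGTATT and CAGTGTT, the longest annotated 3′ untranslated region of ZEB1 (2549 bases) held 6 and 3 matches. That of ZEB2 (5370 bases) held 5 and 4 matches. Of 19306 protein-coding genes, 0.0414% held at least 9 matches in all, without adjustment for the length of the region. TWIST2, SNAI2 and GRHL2 each held 1 match and ESRP1 held 2, whereas SNAI1, TWIST1, ESRP2 and OVOL1 held none. A match is a description of the letters and not a measured site.

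For the genes with no count in parental cells, promoter windows were in the RefSeq table for ZEB1, ZEB2 and TWIST2, which are 3 of the 10 members. The 250 bases before the start site are printed 5′ to 3′ with the E-box letters CAGGTG or CACCTG in capitals. These 2 words are each other's reverse complement, so that both strands were searched. For ZEB1, the start site with the most E-boxes of 7 was chosen, and 2 of the 7 windows held any.
ZEB1 (chr10:31318966-31319215, plus strand, GRCh38.p14): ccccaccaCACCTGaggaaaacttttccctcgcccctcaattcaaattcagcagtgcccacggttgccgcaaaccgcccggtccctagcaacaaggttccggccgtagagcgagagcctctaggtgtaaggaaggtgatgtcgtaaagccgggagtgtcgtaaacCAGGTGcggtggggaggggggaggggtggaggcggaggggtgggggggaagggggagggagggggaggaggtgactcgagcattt
ZEB2 (chr2:144520120-144520369, minus strand, GRCh38.p14): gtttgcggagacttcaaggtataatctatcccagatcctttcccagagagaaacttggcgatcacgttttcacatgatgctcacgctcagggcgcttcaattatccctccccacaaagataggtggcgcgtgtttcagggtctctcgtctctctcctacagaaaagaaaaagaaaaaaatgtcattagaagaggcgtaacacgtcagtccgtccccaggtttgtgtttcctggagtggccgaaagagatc
TWIST2 (chr2:238847835-238848084, plus strand, GRCh38.p14): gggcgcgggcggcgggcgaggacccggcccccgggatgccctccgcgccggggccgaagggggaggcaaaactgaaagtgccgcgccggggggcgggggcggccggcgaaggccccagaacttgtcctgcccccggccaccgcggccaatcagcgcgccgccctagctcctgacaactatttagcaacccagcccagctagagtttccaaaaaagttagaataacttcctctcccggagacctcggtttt
The ZEB1 window held 2 E-boxes, and those of ZEB2 and TWIST2 held none of these letters. Of 35116 promoter windows of this length, 17.5% held at least 1 E-box and 2.5% held at least 2. These shares are over windows not chosen by their E-boxes, so they cannot be set against a ZEB1 window picked from 7. GC content was 62.4% for this ZEB1 window, 48.0% for ZEB2 and 68.4% for TWIST2, with a median of 58.0% over all windows. CpG counts were 14, 12 and 26, with a median of 11.

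The parental libraries held 20301932 to 20873475 estimated counts, the mutant libraries 20301396 to 26712816. CPM below means the count per 1e+06 counts after TMM scaling, and TPM the count per base of the deposited gene length, scaled to the same total in each library. A gene was called when edgeR's quasi-likelihood test gave a fold of at least 3 and an adjusted p under 0.01 over 16059 tested genes. By this rule 28.6% of tested genes were called higher and 17.6% lower in the mutant cells, 46.2% in all, and the conditions did not overlap for 83.5%. Long and AT-rich genes were more often higher: the median log2 fold change was 1.90 for genes of at least 5000 bases and −0.86 under 2000 bases, 1.60 under 45% GC and −1.23 at 55% GC or more. The members are therefore also given after correction by gene length and GC offsets, which take out any relation with these properties, whatever its source. With these offsets 14% of 15902 genes were called higher and 10.5% lower, and DESeq2 without offsets called 26.2% higher and 19.3% lower. Cell type was checked with marker lists. Of 14 intestinal epithelial markers, 12 were above 1 CPM in every parental library and 11 in every mutant library, with a summed level of 57880 to 80010 CPM in parental and 8963 to 10480 CPM in mutant cells. KRT8, KRT18 and KRT19 made up nearly all of the parental sum, with means of 37380, 18440 and 11440 CPM, whereas CDH1, CEACAM5 and CDH17 of the same list were called higher in the mutant (log2 fold changes of 1.82, 5.66 and 2.1). CEACAM5 passed the filter on low values through the mutant libraries alone, so its call follows in part from the filter. Of 14 fibroblast or mesenchymal markers, 3 and 9 were above this level, with sums of 18.3 to 22.9 CPM and 1831 to 1971 CPM, and COL1A2 and PDGFRA had no count in the mutant. VIM alone gave a mean of 1772 CPM in the mutant sum. FBN1, COL5A1, LUM, COL3A1 and DCN were also called higher, with mutant means of 89.9, 26.2, 5.62, 3.74 and 3.4 CPM. Like VIM, they passed the filter on low values through the mutant libraries alone, so these calls follow in part from the filter. TAGLN was lower in the mutant (15.3 against 1.73 CPM), and FAP, POSTN and THY1 were near 0 in both conditions. Blood markers (1 of 8 above 1 CPM in each condition), endothelial markers (1 and 0 of 6 in the table) and neuronal markers (2 of 8 in each) were few. The neuronal markers were not the same in both: NEFL had no parental count and a mutant mean of 131.5 CPM. TUBB3 had means of 561 CPM in parental and 211 CPM in mutant cells, and DCX and ELAVL4 had no count. Among endothelial markers, KDR was called higher and VWF lower (log2 fold changes of 3.95 and −1.71). KDR, too, passed the filter through the mutant libraries alone. The part of these cell types in the results below was not tested, and in bulk RNA fewer cells of a type cannot be told apart from less RNA per cell. Nothing says that replicates came from separate cultures, so that p-values measure the spread between these libraries.

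Among EMT inducers, ZEB1, ZEB2, SNAI2 and TWIST2 appeared in the p85β KR-AA cells, SNAI1 was lower, and TWIST1 was at or near 0 in both conditions. These 4 genes passed the filter on low values through the mutant libraries alone, so their calls follow in part from the filter and their number is not a result. Of the 10 members, 9 were tested, all but TWIST1.

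ZEB2, a zinc finger repressor (chr2:145121931-145278624, minus strand; GRCh37 here and for the other genes), had 0 counts in each parental library and 611, 523 and 330 counts in mutant replicates 1, 2 and 3. The mutant libraries reached 15.6 ± 3.22 CPM (SD, n = 3), whereas the parental ones were below detection. Against a floor of 3 counts in the parental library where that is worth most, 0.218 CPM, ZEB2 was at least 71.6-fold higher (edgeR adjusted p = 2.59e-08). With length and GC offsets the edgeR adjusted p was 1.32e-06.

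ZEB1, its relative on chromosome 10 (chr10:31607424-31818742), also had 0 counts in all parental libraries, with 56, 33.1 and 35 counts in the mutant ones. The level was low, at 1.32 ± 0.193 CPM (SD, n = 3), or at least 6.03-fold above the floor (edgeR adjusted p = 1.16e-05). For ZEB1 the edgeR adjusted p was 0.0027 with length and GC offsets. In TPM, ZEB2 exceeded ZEB1 by 5.89 to 9.89 times within the mutant libraries. The antisense gene ZEB1-AS1 had 8, 9 and 11 counts in parental and 110, 92.9 and 48 in mutant libraries. As the library kit does not mark strand, reads where the genes overlap cannot be assigned by strand. ZEB2-AS1, in contrast, had 0 counts in parental cells and 1, 3 and 6 in mutant cells, small beside ZEB2.

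SNAI2, also called SLUG (chr8:49830157-49834299, minus strand), had 2, 0 and 0 counts in parental libraries and 173, 151 and 109 in mutant libraries. The mutant mean was 4.65 ± 0.646 CPM (SD, n = 3), a ratio of 104.9 to the parental level with a 95% counting interval from 28.9 to 869.3 (edgeR adjusted p = 2.29e-07). This ratio rests on the 2 counts of parental replicate 1: the fitted log2 fold change was 6.54 with that library and 9.84 without it, where no parental count is left. TWIST2 (chr2:239756673-239832230) had no parental count and 57, 33 and 44 counts in the mutant, at 1.44 ± 0.250 CPM (SD, n = 3). It was at least 6.57-fold above the floor (edgeR adjusted p = 1.01e-05). With length and GC offsets the edgeR adjusted p was 4.17e-06 for SNAI2 and 1.62e-06 for TWIST2.

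SNAI1, the founding SNAIL factor (chr20:48599517-48605423), was the one inducer that both conditions expressed above 1 CPM. Counts were 218, 185 and 251 in parental and 160, 118 and 128 in mutant libraries, which is 14.5 ± 1.01 and 4.38 ± 0.278 CPM (SD, n = 3 each). The groups did not overlap, and SNAI1 fell by 1.73 ± 0.18 (SE) on the log2 scale (edgeR adjusted p = 1.80e-06). The size rests on the scaling: it was −0.81 with library totals and −0.35 with length and GC offsets (adjusted p = 0.0361), both below the fold of 3. The pseudogene SNAI1P1 had 2 counts in 1 mutant library and none elsewhere.

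TWIST1 (chr7:19060614-19157259, minus strand), the paralog of TWIST2, had 5, 0 and 1 counts in parental libraries and 0 in the mutant ones. The 6 parental counts were too few for the test. No fold is given, since all libraries but parental replicate 1 were under the floor of 3 counts.

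**Figure D1:**
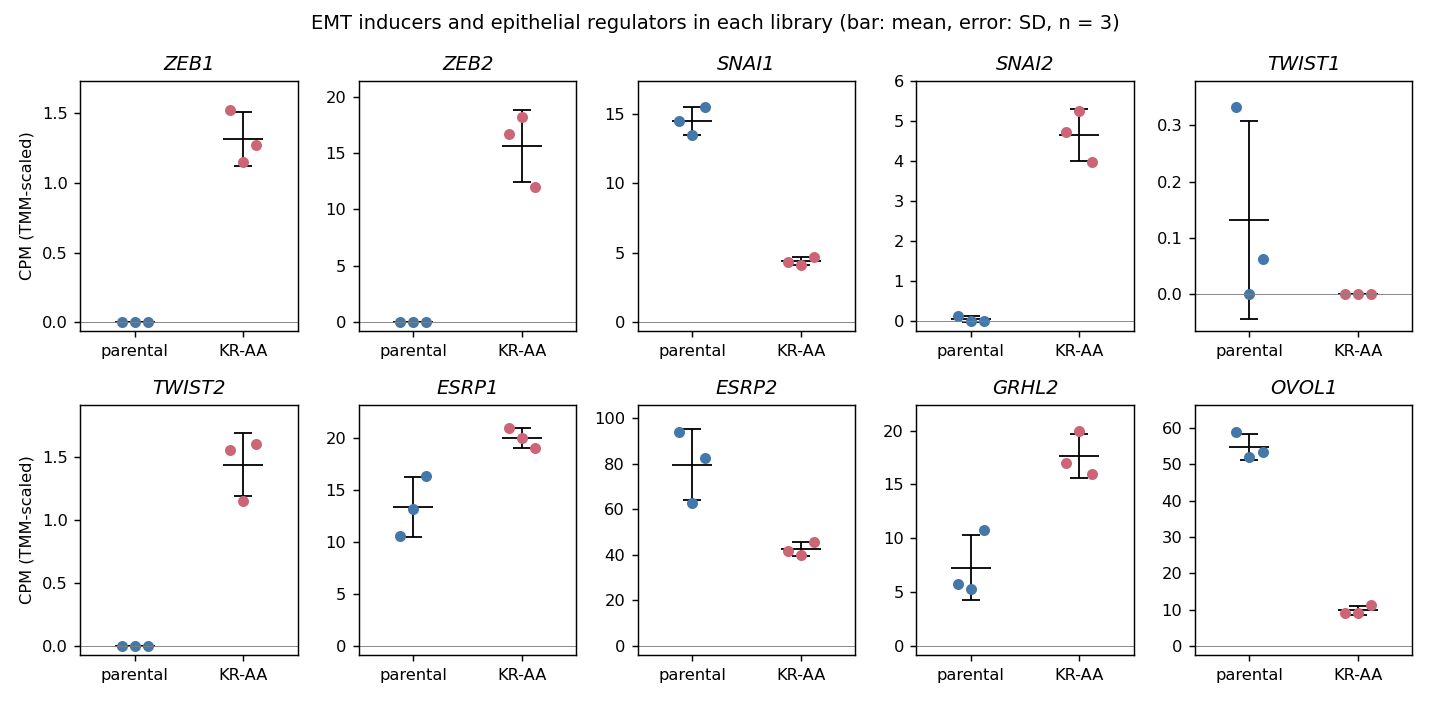
CPM of each member in the 3 parental (blue) and 3 p85β KR-AA (red) libraries; dots are libraries, long bars means and error bars SD, with a separate linear axis per gene. ZEB1, ZEB2 and TWIST2 lie at 0 in all parental libraries. The conditions do not overlap for any of the 9 tested members, nor for 83.5% of all tested genes. ZEB1, ZEB2, SNAI2 and TWIST2 passed the filter on low values through the mutant libraries alone, so their separation follows in part from the filter.

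The 4 epithelial regulators did not move together. OVOL1 was called lower, and the other three were below the fold of 3, with ESRP2 lower and ESRP1 and GRHL2 higher in the mutant under TMM; these directions changed with the scaling, as given gene by gene. None was called higher by edgeR or DESeq2, against 28.6% of all genes, although 2 were higher at an unadjusted p under 0.05. Groups were separate for all 4, 2 higher and 2 lower, where 47.0% of tested genes lay higher and 36.5% lower without overlap.

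OVOL1, a zinc finger repressor (chr11:65554534-65564685), had 887.7, 715.1 and 865.2 counts in parental and 336.0, 260.3 and 310.0 in mutant libraries. Its level was 54.8 ± 3.68 CPM in parental and 9.84 ± 1.26 CPM in mutant cells (SD, n = 3 each), the largest drop under TMM among the 9 tested members. OVOL1 fell by 2.48 ± 0.16 (SE) on the log2 scale (edgeR adjusted p = 2.22e-08), and by 1.72 with length and GC offsets. With library totals it fell by 1.56, just under the fold of 3. The overlapping antisense gene OVOL1-AS1 had 9 to 23 counts in parental and 5 to 9 in mutant libraries, small beside OVOL1.

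ESRP2 (chr16:68262936-68272005, minus strand) was the most abundant member. It had 1413, 862 and 1336 counts in parental and 1538, 1151 and 1259 in mutant libraries, or 79.7 ± 15.7 and 42.6 ± 2.96 CPM (SD, n = 3 each). Its log2 fold change was −0.90 ± 0.16 (SE, edgeR adjusted p = 1.68e-04), but 0.01 with library totals and −0.33 with length and GC offsets. The gene overlaps NFATC3 on the opposite strand, which had 20.8 to 40.7 counts in parental and 551.3 to 872.6 in mutant libraries, so that ESRP2 values are uncertain to the extent that reads in the overlap were split.

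ESRP1 (chr8:95653302-95719694) differed from its paralog. It had 159, 181 and 264 counts in parental and 766, 574 and 521 in mutant libraries, at 13.3 ± 2.87 and 19.95 ± 0.955 CPM (SD, n = 3 each). The log2 fold change was 0.58 ± 0.18 (SE, edgeR adjusted p = 0.0108) under TMM, −0.13 with the length offset and −0.96 with length and GC offsets (adjusted p = 2.07e-05), so its direction turned with the offsets.

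GRHL2, a Grainyhead transcription factor (chr8:102504667-102681954), had 87, 73 and 174 counts in parental and 624, 573 and 437 in mutant libraries. Its mean was 7.28 ± 3.0 CPM against 17.6 ± 2.08 CPM (SD, n = 3 each), with parental replicate 3 at 10.7 CPM and the other two at 5.32 and 5.78 CPM. The log2 fold change was 1.27 ± 0.25 (SE, edgeR adjusted p = 4.42e-04), 2.18 with library totals, −0.05 with the length offset and 0.21 with both offsets. Without parental replicate 3, it was 1.63 and GRHL2 was called higher (adjusted p = 8.32e-05).

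**Figure D2:**
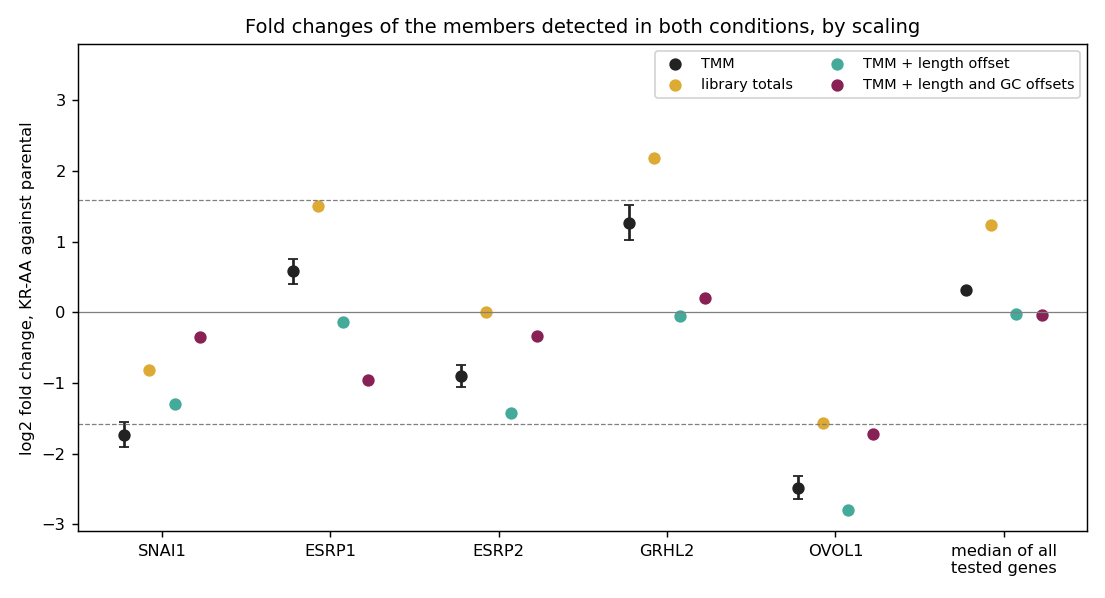
Log2 fold change (mutant against parental) of the 5 members detected in both conditions and the median of all tested genes under 4 scalings; error bars are SE, for TMM alone, and dashed lines mark a fold of 3. SNAI1 and OVOL1 stay below 0 in each, ESRP1 goes from 1.5 with library totals to −0.96 with both offsets, and the median of all genes is at 0.32 with TMM and −0.04 with both offsets.

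The members also differed in base composition. SNAI1, ESRP2 and OVOL1, lower under TMM, had 58.4%, 57.7% and 58.2% GC. ZEB1, ZEB2, ESRP1 and SNAI2, higher under TMM, had 38.4% to 42.6%, and GRHL2 had 49.8%. TWIST2 was the exception, with 59.95% GC and a length of 1176 bases, the shortest of the 10. Whether these properties took part in the differences was not tested beyond the offsets.

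Within a library, levels of genes can be compared per length. In parental cells ESRP2 (16.4 to 28.3 TPM) and OVOL1 (15.45 to 20.1 TPM) were highest. Their ranges overlapped, but ESRP2 was above OVOL1 within each parental library. SNAI1 (7.0 to 9.86 TPM), ESRP1 (2.86 to 4.69 TPM) and GRHL2 (0.899 to 2.22 TPM) followed. In mutant cells ESRP2 led (31.65 to 34.3 TPM), then ESRP1 (12.7 to 14.3 TPM), and GRHL2 and OVOL1 overlapped at 7.69 to 10.2 TPM and 7.91 to 9.56 TPM. SNAI1 (6.45 to 6.92 TPM) and SNAI2 (4.61 to 6.45 TPM) came next and lay close together. The range of ZEB2 (3.17 to 5.08 TPM) overlapped those of SNAI2 and TWIST2 (2.61 to 3.45 TPM), and ZEB1 was lowest (0.514 to 0.658 TPM). Within each mutant library SNAI2 was above ZEB2.

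The inducer pool went from 1 gene to several. SNAI1 made up 97.0% to 100% of the summed inducer TPM in parental libraries and 30.5% to 37% in mutant libraries. The sum was 7.0 to 9.90 TPM in parental and 18.7 to 21.1 TPM in mutant cells. The 4 regulators still summed to more than the 6 inducers, by 5.12 to 5.86 times in parental and 3.02 to 3.44 times in mutant libraries. Their own sum was 35.9 to 52.7 TPM and 62.6 to 64.3 TPM. TPM carries no TMM scaling, so the direction of TPM sums and ranges between conditions depends on the scaling. ESRP2, for example, had means of 23.7 TPM in parental and 32.6 TPM in mutant cells, but 79.7 and 42.6 CPM. ESRP2 exceeded ESRP1 5.30 to 9.89 times in parental and 2.23 to 2.69 times in mutant libraries, a change of −1.48 in their log2 ratio that turned to 0.64 with length and GC offsets. The log2 ratio of SNAI1 to ESRP1, which no scaling of whole libraries can move, went from between 1.07 and 1.60 to between −1.14 and −0.88. With length and GC offsets, where SNAI1 was at −0.35 and ESRP1 at −0.96, the change in this ratio turned to 0.61. The log2 ratio of SNAI1 to OVOL1 rose by 0.75, from between −1.22 and −0.98 to between −0.47 and −0.26, and by 1.37 with the offsets. The change in the log2 ratio of SNAI1 to GRHL2 was −2.99, and −0.56 with the offsets. For SNAI1 to ESRP2 the change was −0.82, and −0.03 with the offsets. With 3 libraries against 3, an exact permutation test cannot go below p = 0.1, so none is given.

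**Figure D3:**
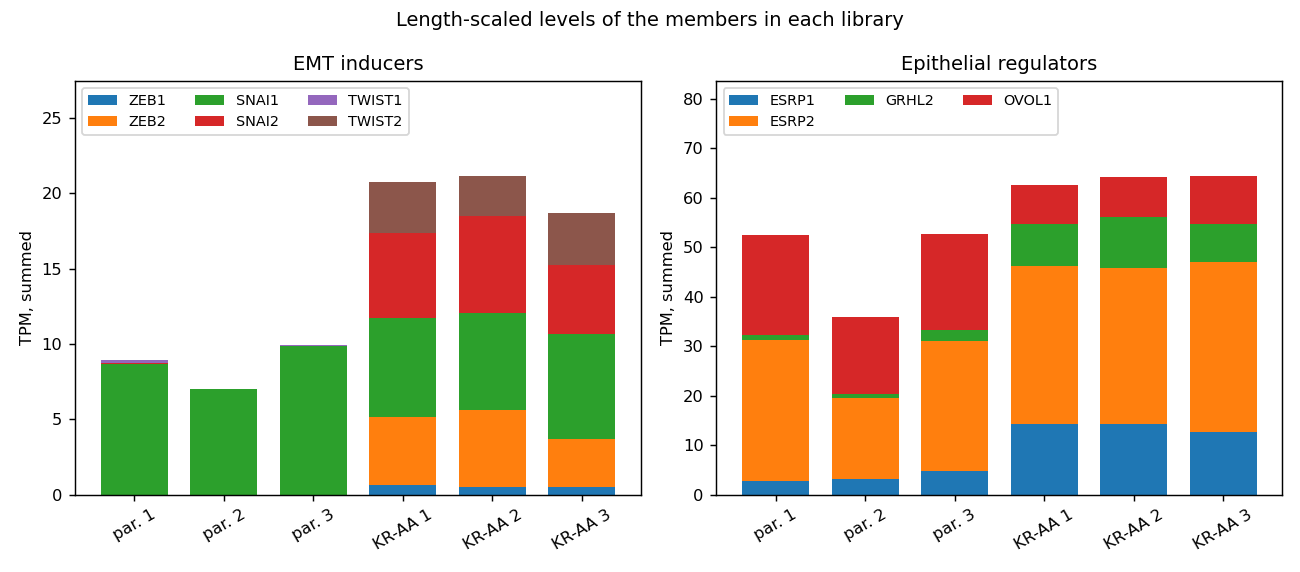
TPM of the inducers (left) and regulators (right) stacked within each of the 6 libraries, with separate linear axes from 0. The parental inducer bar is almost wholly SNAI1 and the mutant bar is shared by SNAI1, SNAI2, ZEB2 and TWIST2, while ESRP1 and GRHL2 take a larger part of the mutant regulator bar.

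Relatives of the members followed no single direction. OVOL2 had 183, 191 and 219 counts in parental and 90, 68 and 46 in mutant libraries, and fell by 2.60 ± 0.22 (SE) on the log2 scale (edgeR adjusted p = 2.04e-07). SNAI3 fell by 2.58 ± 0.26 (SE, edgeR adjusted p = 1.03e-06). GRHL1 (log2 fold change 0.98, and −0.53 with length and GC offsets) and GRHL3 (0.61 and 1.0) were not called. With length and GC offsets edgeR called none of the 4 tested relatives (all genes 14% higher and 10.5% lower). At an unadjusted p under 0.05, 1 relative was then higher and 3 were lower. OVOL2 was then at −1.24 and SNAI3 at −0.73.

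Of 9 tested EMT-promoting factors outside the members, 4 were called higher and none lower by edgeR and DESeq2 alike. Over all genes edgeR called 28.6% higher and 17.6% lower, and DESeq2 26.2% and 19.3%. The median log2 fold change of the factors was 1.0 against 0.32 over all genes. At an unadjusted p under 0.05, 7 were higher and 2 lower. TBXT, the brachyury factor of early mesoderm, had 0, 1 and 3 counts in parental and 23165, 17521 and 16865 in mutant libraries, a ratio of 6974 with a 95% counting interval of 2724 to 25600 (edgeR adjusted p = 1.72e-11). FOXC1 rose by 3.39 ± 0.20 (SE), TCF4 by 2.74 ± 0.38 and RUNX2 by 1.79 ± 0.23 on the log2 scale. TBXT and TCF4 passed the filter on low values only with the mutant libraries, so the number of factors called higher follows in part from the filter. TCF3, which encodes the E12 and E47 proteins, changed least among the tested factors by the naming rule (log2 fold change −0.61, and 0.30 with offsets). With offsets FOXC1 was at 3.59, TCF4 at 1.39 and RUNX2 at 1.23. Then 2 factors were called higher (TBXT and FOXC1), where 14% of all genes were called higher and 10.5% lower. With an unadjusted p under 0.05, 0 of the factors were lower. Of 9 tested epithelial transcription factors, EHF was called higher (2.46 ± 0.18, SE) and the intestinal factor CDX2 lower (−1.98 ± 0.12). Over all genes the shares were 28.6% and 17.6%. KLF4 (1.5) and HNF4A (−0.14) were not called. With offsets 2 of the 9 were called higher and none lower by edgeR (all genes 14% and 10.5%), with 3 lower at an unadjusted p under 0.05. EHF was then at 1.78, KLF4 at 2.03, CDX2 at −1.47 and HNF4A at −0.75, and the 2 called were EHF and KLF4.

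Genes that ZEB and SNAIL proteins repress did not move as 1 group: of 20 tested, 10 were lower and 5 higher, with a median log2 fold change of −1.66, against 17.6% lower and 28.6% higher over all genes. With length and GC offsets 1 was called lower (KRT18) and 1 higher (MUC1), and at an unadjusted p under 0.05, 14 were lower and 3 higher. DESeq2 called 12 lower and 5 higher. CLDN3, a tight junction claudin, fell by 2.98 ± 0.15, the keratin KRT18 by 2.86 ± 0.16 and plakophilin PKP3 by 2.81 ± 0.14 (SE, log2). With offsets these were at −0.64, −1.60 and −1.39. CDH1, which encodes E-cadherin, the classical repression target, was on the higher side. It had 1594, 825 and 2041 counts in parental and 12231, 9495 and 10074 in mutant libraries, and rose by 1.82 ± 0.22 (SE, log2; edgeR adjusted p = 5.41e-06), but by 0.64 with offsets. OCLN, PATJ, DSP and MUC1 were the other 4 called higher under TMM. With offsets OCLN turned from 1.99 to −0.45 and PATJ from 2.35 to −0.14, DSP went from 2.39 to 0.34, and MUC1 was at 2.94. MARVELD2 was nearest to no change (0.76, and −0.94 with offsets).

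Genes known to rise in EMT were 6 higher and 1 lower of 13 tested, where 28.6% of all genes were called higher and 17.6% lower. With offsets the counts were 5 and 1 (all genes 14% and 10.5%), and DESeq2 called 5 higher and 2 lower. VIM, CDH2, CDH11 and LOX, called higher under TMM, passed the filter on low values only with the mutant libraries. The number called higher therefore follows in part from the filter. VIM, the intermediate filament of mesenchymal cells, had 9, 13 and 14 counts in parental libraries and 67012.9, 48627.9 and 49227.0 in mutant libraries, and rose by 11.10 ± 0.21 (SE, log2; edgeR adjusted p = 8.71e-12). FN1, fibronectin, rose by 10.18 ± 0.20. With offsets VIM was at 10.69 and FN1 at 7.55. CDH11, a cadherin of mesenchymal cells, had 4 parental counts in all and a ratio of 3327 (95% counting interval 1299 to 12210). TAGLN, which encodes the actin-binding protein transgelin, fell by 3.14 ± 0.22 (−1.89 with offsets), and the integrin ITGA5 was at −0.07.

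Genes whose exons ESRP1 and ESRP2 splice were 9 higher and 1 lower of 13 tested (all genes 28.6% and 17.6%), but edgeR called 0 higher and 1 lower with offsets, where 5 were higher and 5 lower at an unadjusted p under 0.05. DESeq2 called 7 higher and 1 lower. SLK rose by 3.75 ± 0.29 and MAP3K7 by 2.57 ± 0.29 under TMM, and SCRIB fell by 2.33 ± 0.14 (SE, log2). With offsets SLK was at 1.07, MAP3K7 at 0.40 and SCRIB at −1.78. Gene totals hold no exon level, so their splicing was not read. Among 10 other splicing regulators, edgeR called 5 higher and none lower (all genes 28.6% and 17.6%), and DESeq2 4 and none, with 2 lower at an unadjusted p under 0.05. QKI rose by 4.26 ± 0.22, MBNL2 by 3.40 ± 0.27 and MBNL1 by 3.0 ± 0.24 (SE, log2), and SRSF1 was at 0.13. The offsets took these to 1.36, 1.3, 0.5 and −0.49. With them edgeR called none of them, where 7 were higher and 3 lower at an unadjusted p under 0.05.

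Co-repressors and modifiers of the inducers counted 9 higher and 2 lower of 21 tested, where 28.6% of all genes were called higher and 17.6% lower. With offsets 2 were called higher (EZH1 and FBXL14) and 3 lower (AJUBA, WTIP and HDAC2), near the shares of all genes (14% and 10.5%), with 8 higher and 9 lower at an unadjusted p under 0.05. ATM, a kinase that acts on ZEB1, rose by 3.8 ± 0.27, and SIN3A and RCOR1, scaffolds of co-repressor complexes, rose by 3.15 ± 0.33 and 3.04 ± 0.23 (SE, log2). With offsets ATM was at 0.68, SIN3A at 1.4 and RCOR1 at 1.22. The 2 called lower were AJUBA and WTIP, LIM proteins that bind SNAIL, and PAK1 was at −0.13. For microRNA host genes, 2 of 9 were tested. MIR200CHG, the host of miR-200c and miR-141 whose sequences are given above, had 38, 45 and 35 counts in parental and 11, 9 and 9 in mutant libraries. It fell by 3.06 ± 0.34 (SE, log2, edgeR adjusted p = 3.01e-06), and by 1.36 with length and GC offsets, where it was not called. MIR200CHG passed the filter on low values through the parental libraries alone, so its call follows in part from the filter. MIR34AHG was not called (1.37). Of the rest, 6 had no count in any library. Mature microRNAs were not measured.

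Most like SNAI1 over the 6 libraries, by the distance between centred log2 CPM profiles, were PRPF19, IDH2, YARS1, FTSJ3 and YRDC, at distances of 0.0853 to 0.149. Most like ESRP2 were MED24, QSOX1, SLC7A5, ERBB2 and EEF2, at 0.0738 to 0.101. With 2 conditions the likeness is mainly that of the fold change: −1.70 to −1.65 for the first group and −0.98 to −0.87 for the second.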

How the data were processed

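The authors deposited estimated counts (expected counts, not normalized) per Ensembl gene for 6 libraries, with a gene length. The submitters' processing notes name HISAT2 2.1.0, RSEM 1.3.1, DESeq2 1.24.0 and the build hg18, and the study's methods describe trimmed paired-end reads. Counts, assumed whole in the design, were rounded and compared by the quasi-likelihood test of edgeR 4.0.16 under R 4.3.3, after TMM scaling and filterByExpr (at least 10 counts, 15 in total), without covariates and with Benjamini-Hochberg adjustment. A total of 1 count was worth 0.0664 CPM in parental replicate 1, and intervals and floors cover counting error only. Positions come from GENCODE 44 on GRCh37, which may differ from the authors' build. Of 58884 genes, 56745 had an annotation. Length and GC offsets were robust splines with 5 degrees of freedom per library (MASS). Members and lists were chosen with earlier results of these data known. Named genes besides the members are, per list, the 3 tested genes whose log2 fold change is farthest from 0 and the 1 nearest to it, and genes needed to name a count of 5 or fewer; for likeness, the 5 nearest protein-coding genes. A gene that this rule names is not reported here. Alternatives were DESeq2 1.42.0, RLE scaling, library totals, other filters, the replicate block, each library left out, other thresholds, glmTreat and the offsets. Replicate numbers gave no sign of pairing: deviations of same-numbered libraries correlated between −0.136 and 0.119, and those of other-numbered libraries between −0.175 and 0.234. So few correlations cannot show that no batch was shared. On simulated counts for this comparison (15844 genes), 200 genes were changed, each in a direction drawn at random. There edgeR recovered 96.9% of 4-fold and 100% of 8-fold changes, with 0 unchanged genes called. In the data 46.2% of tested genes were called, so a simulation with so few changed genes cannot test the TMM scaling. With a length bias added to the simulated counts (16284 genes), the fit without offsets recovered 83.3% of 4-fold changes and called 130 unchanged genes, and with the length offset 99% and 0.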

Additional observations from a re-analysis of the deposited data

How the results depend on the processing

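ZEB1, ZEB2, SNAI2 and TWIST2 could be tested only where the mutant libraries alone can pass the filter, so their calls say nothing about stability. Requiring at least 10 counts in every library removes all 4, leaving 0 inducers higher, 0 lower, and median log2 fold changes of −1.53 (inducers) and 0.04 (regulators), with 2898 of all genes higher. SNAI1 was not called lower (0 inducers lower) with library totals, a test of the fold against 3, or either offset. With library totals 1 regulator was higher and 0 lower, all genes gave 7052 higher and 973 lower (87.9% higher against 61.9%), and medians were 8.30 and 0.76; ESRP2 was at 0.01. At adjusted p under 0.05 without a fold minimum, 2 regulators were higher and 2 lower (all genes 7373 and 5738). Tested against a fold of 3, all genes gave 2974 and 1779. With the length offset, 2997 genes were higher and medians were 7.59 and −0.78, ESRP1 being at −0.13 and GRHL2 at −0.05. With length and GC offsets, 2230 were higher and 1677 lower, medians were 7.51 and −0.65, and ESRP1 was at −0.96. The inducer median, 7.93 in the main fit, was 6.63 with DESeq2 and 7.27 without the filter. In the main fit this median is the fitted value of ZEB1, which has no parental count. Its size therefore depends on the fit, and these medians say nothing about stability. The inducer median is 2.72 with genes absent from parental cells at their bound. The causes were not tested. The replicate block changed no call of a member (4 inducers higher; all genes 4626 and 2827), and robust moderation, added after seeing the data, gave 4618 and 2823. Leaving out each library in turn gave 0 to 1 regulators higher (1 without parental replicate 3), 7.63 to 8.14 for the inducer median and 4404 to 4783 genes higher. Depth limits TWIST1, at 6 counts.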
